A study of Homo sapiens with 4 samples.

Results

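The ubiquitin-specific proteases (USPs) were followed in HGC-27 cells carrying control shRNA or USP47 shRNA. Members were the protein-coding genes whose symbol is USP and a number, with or without trailing letters. USP9Y, USP6NL, pseudogenes, antisense genes and the USP17L copies were left out. Of 50 such genes in the annotation, 49 had a row in the count tables, among 63568 gene identifiers in all, and USP27X was not analysed here. HGC-27 is an established human gastric carcinoma cell line. Its cells had been infected with lentivirus that carried a control (scrambled) shRNA or an shRNA against USP47, and polyA RNA was sequenced from 2 libraries of each group. The study made stable lines with 2 independent USP47 shRNAs. The sources used here give neither their sequences nor which of them each library carries, so a difference between shRNAs and the spread between libraries cannot be told apart.

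Ubiquitin is a small protein that is joined to other proteins as a mark for degradation or signalling. USPs are proteases, nearly all with a cysteine in the active site, that take ubiquitin off again, and they form the largest family of human deubiquitinases. USP7 and USP47 are closely related multidomain enzymes. USP7 acts on MDM2 and p53, while USP47 binds the ubiquitin ligase receptor beta-TrCP and acts on DNA polymerase beta.

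Library totals ran from 15649899 to 20140273 counts, and the 49 USP genes took between 0.261% and 0.316% of them. Of markers of the line, the mesenchymal gene VIM was counted 7201 to 9236 times per library, but CDH2 only 3 to 10 times. FN1 was counted 1240 and 1448 times with control shRNA and 545 and 459 times with USP47 shRNA. Of the epithelial genes, KRT18 and KRT19 were counted at most 1 time. EPCAM was counted 12 and 11 times with control shRNA and 3 and 3 times with USP47 shRNA. CLDN18, counted 43 to 66 times, was the only gastric marker on the list with more than 3 counts in any library. The epithelial and gastric markers of the labelled origin were thus at or near 0, apart from CLDN18 and low counts of CDH1, KRT8 and EPCAM. Because each library is bulk RNA, fewer cells expressing a gene and less RNA per cell cannot be told apart. The libraries are described as biological duplicates, with no word on separate infections, so p-values measure the spread between these libraries only.

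The depth of USP47 loss was examined first. USP47 (ENSG00000170242) lies on the plus strand of chromosome 11 of GRCh37, from 11862970 to 11983434. It was counted 1357 and 1297 times with control shRNA, and 749 and 309 times with USP47 shRNA. As CPM, counts scaled to library size by TMM, these were 80.0, 66.1, 36.0 and 21.5. Both knockdown libraries lay below both controls, and they lay further apart from each other in proportion than the controls did. USP47 fell by 1.34 on the log2 scale (SE 0.21, 95% interval -1.80 to -0.87, adjusted p = 0.00362 by edgeR's quasi-likelihood test, Benjamini-Hochberg over 21932 genes). Set against both controls summed, the knockdown libraries kept 49.6% (exact 95% counting interval 45.7 to 53.9) and 29.7% (26.3 to 33.4) of the USP47 reads. These 2 counting intervals do not overlap, and they cover counting error only. Exons of DKK3 overlap USP47 on the other strand, and whether the counting used strand is not stated. DKK3 was at 1.65 and 1.84 CPM with control shRNA and at 2.69 and 2.93 CPM with USP47 shRNA (edgeR adjusted p = 0.0825).

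The same unequal loss was set beside the rest of the family. Over the 44 members with at least 50 counts in every library, USP47 shRNA replicate 2 was compared with replicate 1 as a difference in log2(CPM + 0.5). USP47 had the lowest difference, -0.73. The other 43 members ran from -0.67 (USP16) to 0.50 (USP35) with a median of -0.04, so a member that no shRNA was aimed at came close to USP47. Between the control libraries the range was narrower, -0.29 to 0.28. These within-group differences followed base composition: across the 44 members they correlated with the G+C content of the transcript at r = 0.77 (Spearman's rho 0.79) in USP47 shRNA cells and r = 0.66 (rho 0.64) in control cells. As a description, all members share the same libraries, and the same correlation over 11074 protein-coding genes was 0.58 and 0.46. USP47 transcripts hold 41.7% G+C, and the 11 members within 2 percentage points of that had differences of -0.47 to 0.21. With the G+C trend of each library removed, USP47 remained the lowest of the 44 at -0.60, and the knockdown libraries held 48.8% and 31.9% of its mean control CPM. The group log2 fold changes of the 44 members had r = 0.13 with G+C content.

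**Figure D1:**
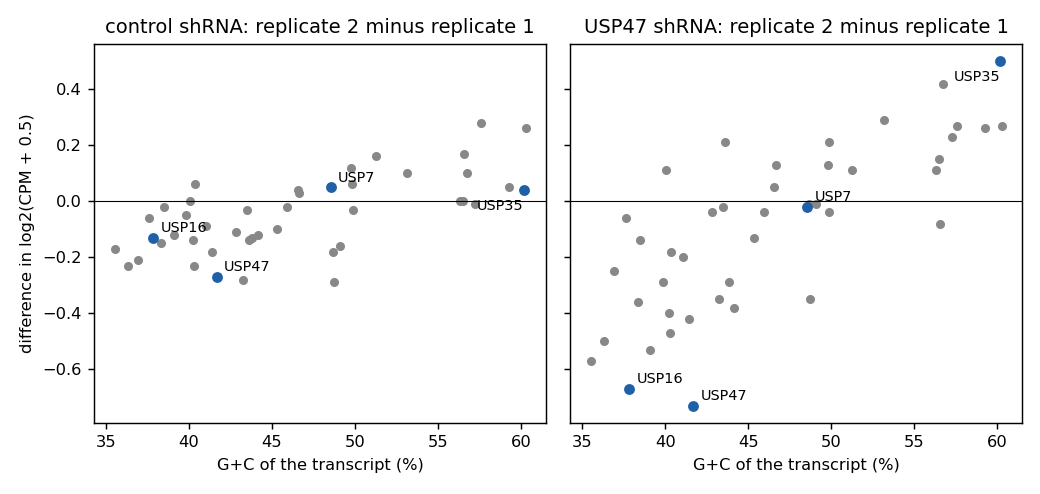
Difference between replicate 2 and replicate 1 in log2(CPM + 0.5) (y axis) against the G+C content of the transcript in percent (x axis), for control shRNA and USP47 shRNA libraries, where each point is 1 of 44 USP genes. Points rise with G+C content in both panels, and USP47 lies lowest in USP47 shRNA cells, at -0.73.

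USP47 was a middle-ranking member before knockdown. On the per-length TPM scale of the deposited tables, it stood at 10.4 and 7.60 in control cells, the 21st highest mean of 49. Its neighbours in that order, USP36 above and USP3 below, lay within the spread of the control libraries. In USP47 shRNA cells it was at 4.68 and 2.09 TPM, and its rank by mean fell to 35. USP47 made up 1.70% and 1.42% of the family's summed TPM in control cells, and 0.773% and 0.467% in USP47 shRNA cells.

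None of the most abundant members passed the test in the main edgeR fit. USP22, the histone H2B deubiquitinase of the SAGA complex, stood at 70.4 and 66.5 TPM in control cells and 62.9 and 57.6 TPM in USP47 shRNA cells. By CPM the groups overlapped for USP22, with 329 and 353 in control cells and 295 and 361 in USP47 shRNA cells. After it came USP39, a splicing factor without protease activity (mean control level 45.4 TPM), and USP14, which sits on the proteasome (38.8 TPM). USP5, which disassembles free ubiquitin chains (31.2 TPM), and USP10, a partner of G3BP1 (30.7 TPM), completed the 5 highest. For these 5 the log2 fold changes of CPM, without a call, were -0.05 for USP22, 0.26 for USP39, -0.22 for USP5 and -0.14 for USP10, with edgeR adjusted p from 0.213 to 0.887. USP14 had 0.03, a sign that turned to -0.03 with scaling by library size alone. The same 5 genes held 35.5% to 40.0% of the family's TPM in every library. The family's summed TPM was 448 in USP47 shRNA replicate 2, where the other libraries had 537 to 614.

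**Figure D2:**
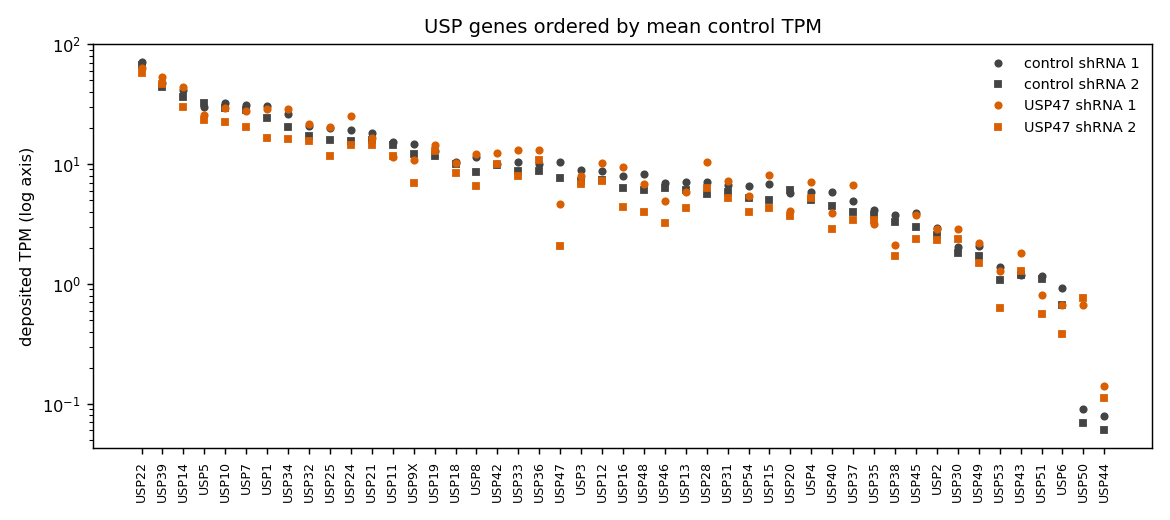
TPM (log axis) of the USP genes in each of the 4 libraries, ordered by mean control TPM, with 1 point per library (USP26 and USP29, at 0, are not drawn). USP22 is highest with a mean of 68.5 TPM, and USP47 is the only gene called lower by more than 1 on the log2 scale.

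USP7, the closest relative of USP47, was the first candidate for a compensating rise. USP7 (chromosome 16, 8985954 to 9069185, minus strand) was at 169 and 175 CPM with control shRNA and at 152 and 150 CPM with USP47 shRNA. The groups did not overlap, and the lower values were in the knockdown. The log2 difference was -0.19 (SE 0.12, 95% interval -0.47 to 0.08, edgeR adjusted p = 0.315), which did not pass the test. The interval's upper end, 0.08, lies well under the 0.585 that a 1.5-fold rise would give. Other designs gave -0.26 to -0.17, and the fit with both a replicate block and a G+C correction was the only one to pass, with -0.20 (adjusted p = 0.0328). No fit gave a rise of USP7. These values are RNA levels, and USP7 protein or activity was not measured.

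Across the family, 46 members had enough counts to be tested. USP26 and USP29 were at 0 in all libraries, where a count of 0 allows up to 3 counts per library, and USP44 had 5 to 11 counts. Of the 46, 9 were called (19.6%), where 16.1% of all 21932 genes were called. Rises were called for 4 members (8.70%, against 6.52% of all genes) and falls for 5 (10.9%, against 9.56%). DESeq2 called 2 rises (6.82% of its 16453 genes) and 4 falls (7.13%), 13.9% of all genes in either direction. The shares of members called were thus near those of all genes. Of the 45 tested members other than USP47, 22 had a positive and 23 a negative log2 fold change, with a median of -0.001 beside -0.0083 over all genes. Groups were apart for 14 members with both knockdown libraries higher (29.3% of all genes) and 12 with both lower (31.7%), 56.5% of the tested members in all beside 61% of all genes. The family's summed CPM without USP47 was 2955 and 2883 with control shRNA and 2980 and 2829 with USP47 shRNA, so those groups overlapped.

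A bound on compensation can be read from the intervals. For 37 of the 45 members other than USP47, the upper 95% limit lay under a 1.5-fold rise, a share of 82.2% beside 63.1% of all genes. That count was 23 without control shRNA replicate 1. Intervals are wider at low counts (SE 0.55 for USP50, 0.12 for USP7), and the shares of 82.2% and 63.1% were not matched for read depth. The 8 members whose upper limit reached past a 1.5-fold rise were USP19, USP24, USP28, USP30, USP36, USP37, USP43 and USP50. For USP50 the whole interval lay above a 1.5-fold rise, and for the other 7 the interval held one.

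**Figure D3:**
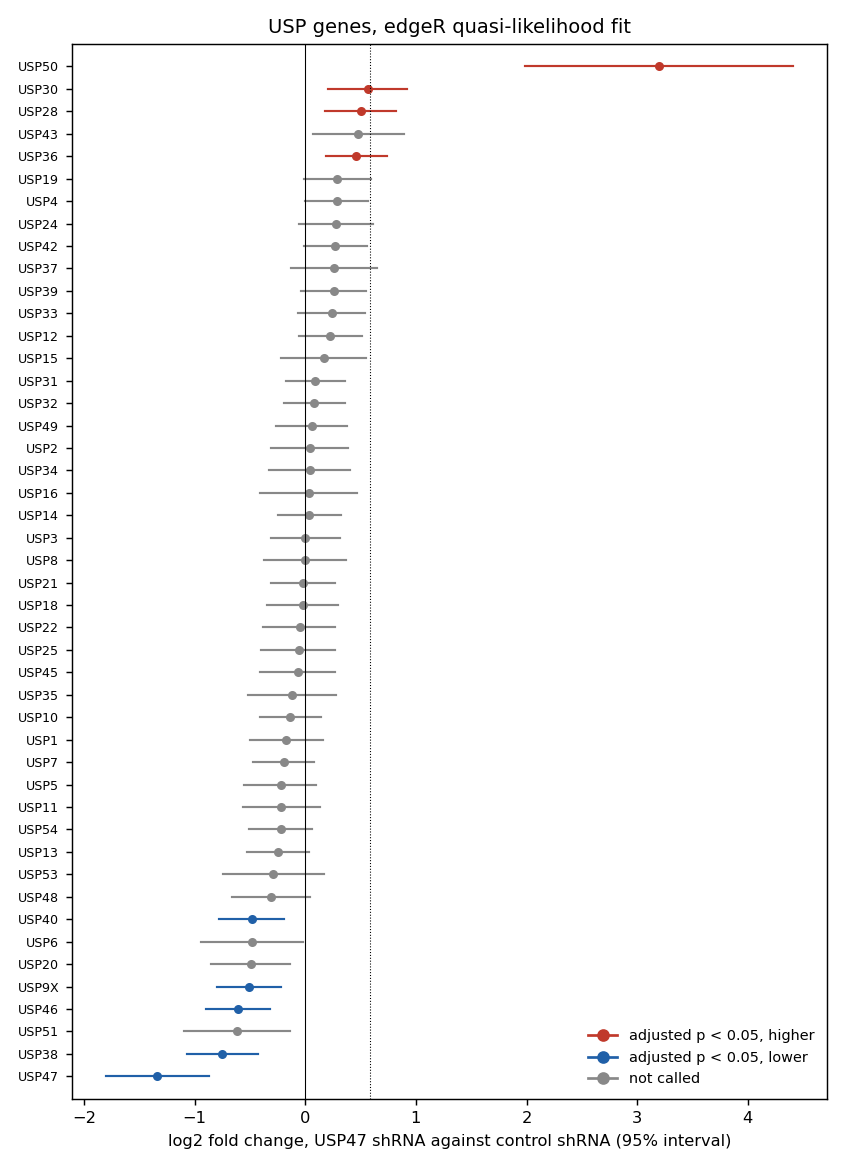
Log2 fold change of CPM, USP47 shRNA against control shRNA, for the 46 tested USP genes, with 95% intervals from edgeR as bars and called genes in colour. USP47 lies lowest at -1.34 and USP7 at -0.19, and the 4 called rises are USP50, USP30, USP28 and USP36.

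Among the 4 called rises, USP50 was the largest in fold and the smallest in reads. USP50 (chromosome 15, 50786215 to 50838905, minus strand) was counted 2 and 2 times in control cells and 18 and 19 times in USP47 shRNA cells. The summed counts, scaled for library size, gave a ratio of 9.63 (exact 95% counting interval 3.46 to 37.2), and edgeR a log2 fold change of 3.20 (SE 0.55, adjusted p = 0.00481). DESeq2 gave no adjusted p at such counts. Exons of USP50 overlap USP8, an endosomal deubiquitinase on the other strand with 637 to 1282 counts. USP8 was at 57.5 and 48.8 CPM in control cells and 61.6 and 44.4 CPM in USP47 shRNA cells, with overlapping groups. Without knowledge of strand in the counting, reads from these partners cannot be told apart.

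The other 3 rises were modest. USP30, an enzyme of the mitochondrial outer membrane that opposes mitophagy, was at 7.13 and 7.29 CPM in control cells and 10.2 and 11.2 CPM in USP47 shRNA cells. USP30 (chromosome 12, 109460894 to 109525828, plus strand) rose by 0.57 on the log2 scale (SE 0.16, edgeR adjusted p = 0.0389). The call was lost with DESeq2 (adjusted p = 0.118) and with edgeR under scaling by library size alone (adjusted p = 0.0776). Exons of USP30-AS1 overlap USP30 on the other strand, and without knowledge of strand in the counting their reads cannot be told apart. USP28, which stabilises MYC, was at 27.5 and 25.2 CPM with control shRNA and 40.9 and 33.4 CPM with USP47 shRNA. Its close paralog USP25 had a log2 fold change of -0.06. USP28 (chromosome 11, 113668596 to 113746294, minus strand) rose by 0.50 (SE 0.14, edgeR adjusted p = 0.0416), a call lost with scaling by library size alone (adjusted p = 0.136). USP36, a nucleolar enzyme, was at 71.2 and 71.3 CPM in control cells and 93.3 and 103 CPM in USP47 shRNA cells. In USP36 (chromosome 17, 76783463 to 76837523, minus strand) this was a rise of 0.46 (SE 0.13, edgeR adjusted p = 0.0319). All 3 calls were lost when no filter on low counts was used, with adjusted p of 0.0636, 0.0836 and 0.0509 in the order above.

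Besides USP47, 4 members fell. USP38 (chromosome 4, 144106070 to 144145027, plus strand), which has been tied to innate immune signalling, was at 19.9 and 19.9 CPM in control cells and at 11.4 and 12.3 CPM in USP47 shRNA cells. Its log2 fold change was -0.75 (SE 0.14, edgeR adjusted p = 0.00823). USP46 (chromosome 4, 53457126 to 53525468, minus strand), which needs the cofactor UAF1 for activity, was at 42.3 and 44.1 CPM and then at 30.1 and 26.5 CPM. This was a change of -0.61 (SE 0.13, edgeR adjusted p = 0.0137). In both genes the groups were well apart.

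USP9X (chromosome X, 40944698 to 41095832, plus strand), a very large enzyme that stabilises MCL1, was at 142 and 133 CPM in control cells and 103 and 89.8 CPM in USP47 shRNA cells. Its log2 fold change was -0.51 (SE 0.13, edgeR adjusted p = 0.0277), with the groups well apart. USP40 (chromosome 2, 234384172 to 234475428, minus strand) was at 37.2 and 32.8 CPM and then at 25.1 and 24.9 CPM, a change of -0.48 (SE 0.13, edgeR adjusted p = 0.0348). With DESeq2 the USP40 call was lost (adjusted p = 0.0709). Without either control library, the calls of USP28, USP30, USP36, USP38, USP40, USP46 and USP9X were all lost, and those of USP47 and USP50 remained.

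**Figure D4:**
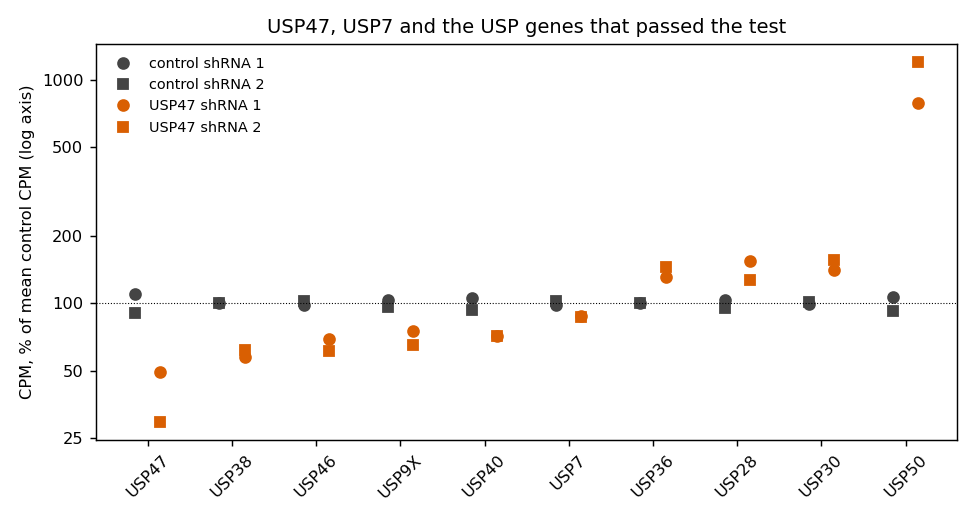
CPM of each library as percent of the mean control CPM (log axis) for USP47, USP7 and the other called USP genes, with 1 point per library. The USP47 shRNA libraries are at 49.3% and 29.5% for USP47, and no other called gene falls below 57.3%.

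Members were also read by role. Over all genes edgeR called 16.1% and DESeq2 13.9%, so 0 calls in such small groups are no departure from all genes. Of USP4, USP11 and USP15, which share a domain layout, 0 of 3 were called in either direction by edgeR or DESeq2. USP4 (log2 fold change 0.29) had an edgeR unadjusted p of 0.0481, which became an adjusted p of 0.152. Unadjusted p under 0.05 were thus common over all genes tested. The UAF1-dependent group held the fall of USP46 beside USP1 (-0.17) and USP12 (0.22). Among the very large members, USP9X fell, while USP24 (0.28) and USP34 (0.04) did not pass. Of 6 tested histone and SAGA members, 0 were called by edgeR or DESeq2, and 1, USP51 (-0.62, edgeR adjusted p = 0.0791), had an unadjusted p under 0.05.

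USP5, USP13 and USP14 at the proteasome and in ubiquitin recycling had -0.25 to 0.03. Of these 3, 0 were called by edgeR or DESeq2 (16.1% and 13.9% of all genes), and 0 had an unadjusted p under 0.05. Of 8 endosome and membrane members, edgeR called only the rises of USP50 and USP30, and DESeq2 called 0. An unadjusted p under 0.05 was found for 4 of the 8. Both knockdown libraries lay below both controls for USP20 (-0.49, edgeR adjusted p = 0.0596). The fits that called USP20 included library size alone, the replicate block, the G+C correction, and the block and correction together. USP6 in that group (-0.48, edgeR adjusted p = 0.137) is in part nearly identical to USP32, so its reads are uncertain. USP18, which removes the ubiquitin-like protein ISG15 and is induced by interferon, was at 15.2 and 16.6 CPM in control cells and 14.9 and 16.4 CPM in USP47 shRNA cells. Its log2 fold change of -0.02 had a 95% interval of -0.35 to 0.30. The 37 tested members without a call ran from -0.62 to 0.48.

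Cofactors of USPs were examined next. Of 9 cofactor genes 3 rose and 0 fell by edgeR, and DESeq2 also called 3, where edgeR called 6.52% of all genes higher and 9.56% lower. The median log2 fold change of the 9 was 0.31, beside -0.0083 over all genes. ATXN7L3, which activates USP22 in SAGA, was at 58.0 and 66.7 CPM in control cells and 85.0 and 112 CPM in USP47 shRNA cells (log2 fold change 0.65, SE 0.16, edgeR adjusted p = 0.0196). ATXN7, which anchors that module, went from a mean of 32.6 to 47.3 CPM (0.54, SE 0.14, edgeR adjusted p = 0.0253). USP22 itself and ENY2 (-0.13), another subunit of the module, did not pass. G3BP1, the stress granule protein that binds USP10, went from 253 to 350 CPM (0.47, SE 0.13, edgeR adjusted p = 0.0373). The UAF1 gene WDR48 (0.20), WDR20 (0.31), GMPS (0.13), ATXN7L1 (0.34) and ATXN7L2 (0.22) were not called.

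Deubiquitinase genes outside the numbered USPs, listed together with the USP-fold genes CYLD, USPL1 and PAN2, were called in both directions. USPL1 and PAN2 are on this list for their fold, not as deubiquitinases. Of 33 tested, 5 rose and 3 fell (24.2%, where all genes had 16.1%), with a median log2 fold change of 0.19. DESeq2 called 6 of the 33, and of the 7 metalloprotease genes, where edgeR called MPND, PSMD14 and STAMBPL1, it called 1. The called rises with the smallest p were MPND, a metalloprotease (15.7 to 27.3 mean CPM, log2 fold change 0.79, edgeR adjusted p = 0.00739), OTUD4 (50.4 to 77.2 mean CPM, 0.61, adjusted p = 0.00953) and MINDY2, which trims long chains (16.2 and 13.8 CPM in control cells, 30.2 and 21.9 CPM in USP47 shRNA cells, 0.81, adjusted p = 0.0146). CYLD and YOD1 also rose. Falls were called for JOSD1 (-0.48, edgeR adjusted p = 0.0283), for PSMD14, the deubiquitinase of the proteasome lid (-0.53, adjusted p = 0.0389), and for STAMBPL1. Of the ubiquitin genes 0 of 4 were called by edgeR or DESeq2, and 3 had an unadjusted p under 0.05 (log2 fold changes of the 4, 0.11 to 0.37). Among so few genes 0 calls are no departure from all genes, where unadjusted p under 0.05 were common. The enzymes that activate ubiquitin moved apart: UBA1 rose by 0.60 (SE 0.17, edgeR adjusted p = 0.0371), and UBA6 had -0.53 (SE 0.14, adjusted p = 0.0332).

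Partners and reported substrates of USP47 showed 0 calls among 7 genes with edgeR and 0 with DESeq2. These tests called 16.1% and 13.9% of all genes, so 0 of 7 does not set the list apart. An unadjusted p under 0.05 was found for 1 gene. That gene was BTRC, which encodes a beta-TrCP protein (60.1 to 73.3 mean CPM, log2 fold change 0.29, edgeR adjusted p = 0.137). SNAI1, a transcription factor of epithelial-to-mesenchymal transition, was at 11.7 and 15.8 CPM in control cells and 12.8 and 18.3 CPM in USP47 shRNA cells, with overlapping groups. FBXW11, the other beta-TrCP gene, had -0.21, KATNA1 -0.30, POLB 0.10, CTNNB1 -0.04 and YAP1 0.04. USP47 acts on proteins, which these counts do not measure.

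**Figure D5:**
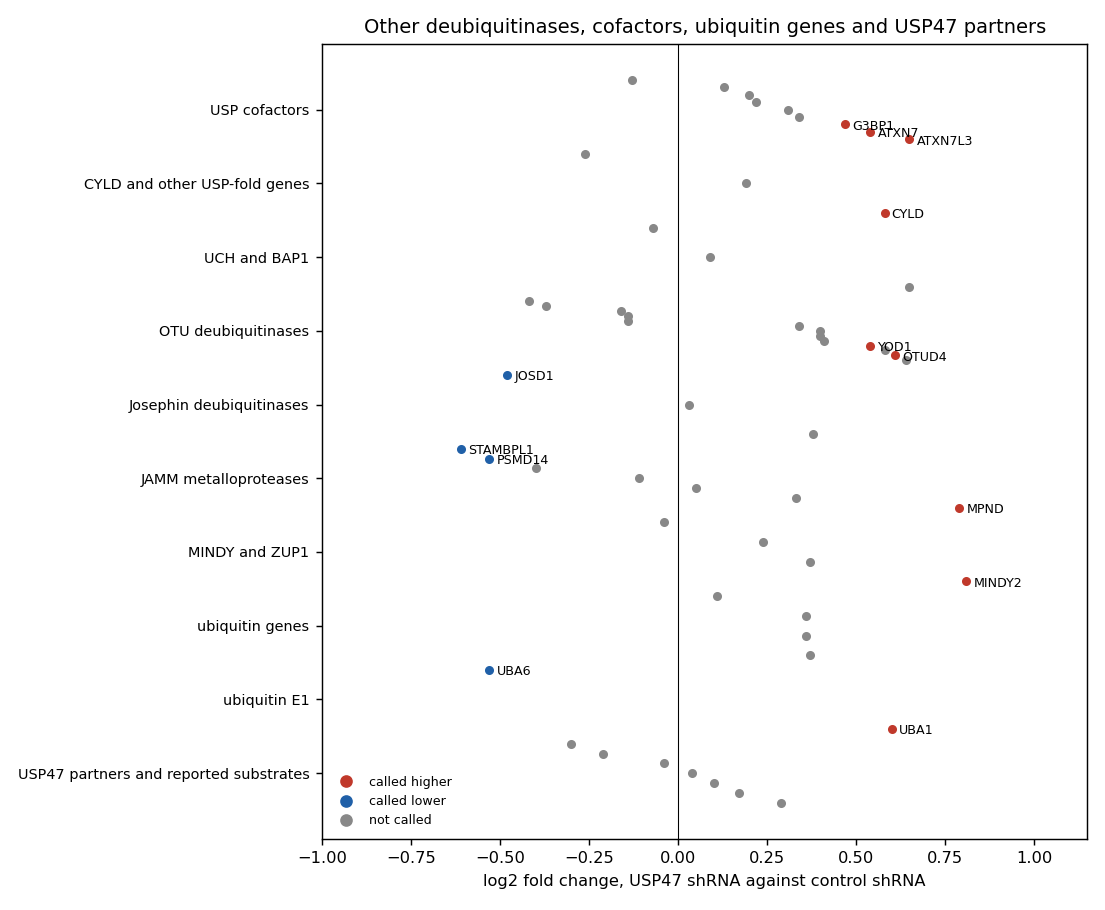
Log2 fold change of CPM, USP47 shRNA against control shRNA (x axis), for tested genes of each list (y axis), with genes called by edgeR in colour and named. Cofactor calls are all higher, while other deubiquitinases have 5 rises and 3 falls.

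Sequence shared with USP47 is shown because an shRNA acts on RNA it pairs with, so a long identical run would mark a member that could be hit as well. Longest identical runs were found between GENCODE protein-coding transcripts of USP47 and those of 48 other members on GRCh37. They ran from 11 to 19 bases with a median of 14. Only USP7 and USP42 reached 19 bases, in a repeated triplet, and 342 of 19832 protein-coding genes (1.72%) share a run of 19 or more. Apart from triplet repeats the longest run was 17 bases, in USP26, which had no reads. Runs of 16 bases followed in USP7, USP18 and USP51. The USP51 run is not printed, and USP51 had a log2 fold change of -0.62 without a call. Since the shRNA sequences were not at hand, whether any run lies in a target was not tested. A short run does not show that a member cannot be hit. The runs below are in the sense of the transcript, 5′ to 3′.
USP7 and USP42, triplet repeat: gcggcggcggcggcggcgg
USP26, longest run that is not a repeat: gacagcagcaaaagtac
USP7, longest run that is not a repeat: tgtgccttctgctctg
USP18, longest run that is not a repeat: attcatttattcagca

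Promoters of 3 called members are printed to show how far windows of members can differ in composition. The windows span the transcript start in RefSeq on GRCh38.p14, a newer build than that of the counts, and CG pairs are in capitals. The USP50 window (chr15:50546617-50546916, minus strand) holds 2 CG pairs. The USP28 window (chr11:113875523-113875822, minus strand) holds 44, and the USP38 window (chr4:143184667-143184966, plus strand) holds 26. Over 51 windows of members other than USP47 the median was 29 (range 0 to 50), beside 14 over 35116 windows of all genes. Some members had several of these windows, and others, USP9X among them, had none. Windows poor in CG pairs were not particular to USP50. USP7 had windows with 0 and 1, USP30 with 0 and USP46 with 4, each beside a richer window (50, 19 and 36). The AP-1 motif TGACTCA, on either strand, was in 0 of the 51 windows and 4.95% of all, and CCAAT, on either strand, was in 12 (23.5%) and in 34.6% of all. These are matches of letters in a short window and say nothing of binding.
USP50: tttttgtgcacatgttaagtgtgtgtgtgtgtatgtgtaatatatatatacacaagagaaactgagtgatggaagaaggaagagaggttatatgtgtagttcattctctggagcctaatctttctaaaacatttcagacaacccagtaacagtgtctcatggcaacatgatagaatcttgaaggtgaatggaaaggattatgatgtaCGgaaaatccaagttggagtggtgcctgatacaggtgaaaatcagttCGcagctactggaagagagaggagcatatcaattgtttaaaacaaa
USP28: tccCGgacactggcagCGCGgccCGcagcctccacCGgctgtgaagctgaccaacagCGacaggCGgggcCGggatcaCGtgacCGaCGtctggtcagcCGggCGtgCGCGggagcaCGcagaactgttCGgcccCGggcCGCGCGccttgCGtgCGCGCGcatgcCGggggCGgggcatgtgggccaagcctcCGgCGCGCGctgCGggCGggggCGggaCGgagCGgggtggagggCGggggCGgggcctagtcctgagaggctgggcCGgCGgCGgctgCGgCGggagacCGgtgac
USP38: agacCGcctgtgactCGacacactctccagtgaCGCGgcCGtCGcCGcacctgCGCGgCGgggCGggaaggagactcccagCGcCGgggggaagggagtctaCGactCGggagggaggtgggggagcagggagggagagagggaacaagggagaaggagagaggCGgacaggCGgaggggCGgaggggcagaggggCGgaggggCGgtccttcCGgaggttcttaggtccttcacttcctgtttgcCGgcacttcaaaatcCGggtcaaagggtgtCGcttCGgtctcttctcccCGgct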

How the data were processed

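RNA-Seq libraries of HGC-27 cells (2 control shRNA, 2 USP47 shRNA) were grouped by the submitters' labels. The authors aligned reads on hg19 (STAR 2.7.5c), used SAMtools 1.9 to drop duplicate and low-quality reads and, per the submitters' processing notes, counted with featureCounts. Removing duplicates without molecular identifiers can lower high counts and compress their changes. The authors deposited raw counts per gene with FPKM and TPM values derived from them. Annotation and use of strand were not given in the sources used here. The labels name a stranded kit, the methods another one. The methods speak of triplicates, the files hold duplicates.

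Identifiers were matched to GENCODE release 44 on GRCh37. Counts were tested with edgeR 4.0.16 in R 4.3.3 (filterByExpr, TMM, robust quasi-likelihood, two-sided, Benjamini-Hochberg adjusted p under 0.05 over all 21932 genes tested). The SE is |log2 fold change| over the root of its F statistic. TPM served for levels between genes, FPKM for a check of their order. Alternatives were DESeq2 1.42.0, legacy quasi-likelihood, other scalings and filters, a replicate block, each library left out and, added later, a G+C correction (loess span 0.3; 96.7% of tested genes have a G+C value). Steps were tested on simulated data.

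Members and lists were chosen with earlier results of these data known. Named genes are USP47, USP7, every called member, the 5 members highest in control TPM, every cofactor and partner, and over the other lists the 3 smallest p in each direction. DKK3, the endpoint genes of ranges, members read by role, CYLD, YOD1, STAMBPL1 and UBA1 were named after their values were seen. The planned comparison of protein sequences was not run, and shared transcript runs took its place.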

Additional observations from a re-analysis of the deposited data

How the results depend on the processing

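USP47 kept its direction and its call in all 13 alternatives (log2 fold change -1.75 to -1.01, adjusted p 1.88e-33 to 0.019). The number of members called higher, 4, was 2 with DESeq2, 1 without a filter on low counts (more genes tested, 6.98% of all genes called) and 1 to 10 with a library left out. The number called lower, 5, was 1 to 11 with a library left out. The lowest counts came without either control library, where 5.25% and 6.22% of all genes were called. The cause was not tested. The other deubiquitinase genes called, 8, were 5 with library size alone, 5 without a filter and 1 to 16 with a library left out. The 37 members with an interval under a 1.5-fold rise were 23 to 38 with a library left out.

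With the replicate number as a block, 9 members were called higher and 9 lower, and 19 other deubiquitinase genes, where 33.8% of all genes were called. All 9 members called without the block were among them. Same-numbered libraries deviated together across genes (r = 0.274), but with 2 pairs and no stated shared batch they share only a number. A G+C correction, chosen after seeing the data, called 6 higher, 6 lower and 14 other deubiquitinase genes, where it called 25.2% of all genes. With the block and this correction together there were 14 higher, 14 lower and 19 others, where 38.7% of all genes were called, and USP7 passed at -0.20 (adjusted p = 0.0328).

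USP14 turned to -0.03 with library size alone and to -0.03 without USP47 shRNA replicate 1, (-0.03 to 0.10 over the libraries left out), and USP22 to 0.09 without USP47 shRNA replicate 1 (-0.20 to 0.09). None of these USP14 and USP22 values passed the test. With the replicate block and the G+C correction together, where 38.7% of all genes were called, USP39 and USP5 passed. USP39 had 0.24 (edgeR adjusted p = 0.0108) and USP5 -0.22 (edgeR adjusted p = 0.0223). Over the libraries left out, USP39 ran from 0.15 to 0.37 and USP5 from -0.36 to -0.08. By CPM, which is not per length, USP47 ranked 13 in control cells, not 21, and by FPKM it ranked 21 as well. In fits without a library, the lone library is taken to vary like the other group. With 2 libraries per group, the test leans on the spread shared between genes, and members under about 10 counts (USP44, USP50 in control cells) have little precision.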
